A study of Mus musculus with 7 samples.

Results

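The genes described here encode BPI-fold secreted proteins, and were taken as every gene whose symbol starts with Bpif in the deposited tables. There were 14 such genes of 23366, and 6 of them passed the filter on low counts that 15129 genes passed. RNA of mouse salivary glands was sequenced in 3 groups: parotid gland at postnatal day 18 (P18, 2 libraries), submandibular gland at P18 (2 libraries) and parotid gland of adult mice aged 12 weeks (3 libraries). The labels name no strain, genotype, treatment or sex for any group, and describe the material both as whole tissue and as isolated epithelial cells. They do not say that replicates came from separate animals, so the p-values reflect no more than the differences among these libraries. Adult replicate 1 differed from the other adult libraries in sex-linked transcripts, as given below, so it came from another animal. The spread among the remaining libraries of a group could be technical.

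BPI-fold proteins share a boat-shaped, lipid-binding fold with the bactericidal/permeability-increasing protein Bpi and the lipopolysaccharide-binding protein Lbp. Most are secreted by the epithelia and glands of the mouth, nose and upper airway, the short BPIFA proteins having a single such domain and the long BPIFB proteins a pair. Bpifa2, formerly named parotid secretory protein (Psp), is a leading protein of mouse parotid saliva. Of the others, Bpifa1 is a secreted protein of upper airway and nasal epithelium, Bpifb1 of airway goblet cells and glands, and Bpifa5 of the tongue.

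In the RefSeq annotation 13 of the 14 genes stood in a single row on chromosome 2, and Bpifc stood alone on chromosome 10. The order was Bpifb2, Bpifb6, Bpifb3, Bpifb4, Bpifa6, Bpifa2, Bpifa3, Bpifa1, Bpifa5, Bpifb1, Bpifb5, Bpifb9a and Bpifb9b, so that Bpifa6 and Bpifa3 flank Bpifa2. The 250 bases before the start sites of Bpifa2, its neighbour Bpifa6 and Bpifa1, which had no count in any library, are shown so that the promoter of the most abundant member can be set beside those of a low and an undetected member. Bases are from RefSeq, build GRCm38.p6, with capitals marking 3 motifs on either strand, and a run of capitals can hold overlapping matches. The first is TATAAA. The second is CANNTG, the E-box of helix-loop-helix factors. The third is GGAA, the core bound by ETS factors.
Bpifa2 chr2:154008026-154008275 (+ strand): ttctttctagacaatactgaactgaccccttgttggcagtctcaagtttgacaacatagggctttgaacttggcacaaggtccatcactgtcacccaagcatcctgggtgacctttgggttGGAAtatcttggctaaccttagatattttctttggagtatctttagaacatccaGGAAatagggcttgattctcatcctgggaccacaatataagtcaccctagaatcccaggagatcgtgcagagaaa
Bpifa6 chr2:153974695-153974944 (+ strand): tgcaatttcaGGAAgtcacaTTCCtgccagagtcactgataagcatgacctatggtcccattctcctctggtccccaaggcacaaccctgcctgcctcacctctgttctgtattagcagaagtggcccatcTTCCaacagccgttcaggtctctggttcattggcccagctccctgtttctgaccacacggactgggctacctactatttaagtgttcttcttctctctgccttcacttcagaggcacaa
Bpifa1 chr2:154142630-154142879 (+ strand): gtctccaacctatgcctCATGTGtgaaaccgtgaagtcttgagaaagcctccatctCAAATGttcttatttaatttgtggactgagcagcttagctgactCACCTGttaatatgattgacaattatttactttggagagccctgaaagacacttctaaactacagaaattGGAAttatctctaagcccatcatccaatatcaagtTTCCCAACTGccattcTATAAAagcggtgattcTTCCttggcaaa

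Neither the Bpifa2 nor the Bpifa6 window held the TATA motif or the E-box, and they held 2 and 3 matches of the ETS core. The Bpifa1 window held the TATA motif with its first base at -29 from the start site, 4 matches of the E-box and 3 of the ETS core. The TATA motif also stood in the windows of Bpifa5 (-28), Bpifb9a (-54) and Bpifb9b (-47). Of 32851 promoter windows of this length, 12.4% held the TATA motif, 66.2% the E-box and 93.4% the ETS core on either strand, so these matches describe the letters and no binding site.

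The coding sequence of Bpifa2 had 708 bases and was the shortest of the 14, against 1104 in Bpifa6 and 1854 in Bpifb4, the longest. Bpifa2 was closest to Bpifa6, with 67.1% of aligned coding bases identical. It shared none of its 2008 transcript stretches of 25 bases with another member, so reads of Bpifa2 have no near-identical copy within the family. Bpifb9a and Bpifb9b, in contrast, were 99.3% identical and shared 1713 stretches, which makes their counts uncertain between copies.

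Total counts per library were between 12844534 and 28856127. Normalised levels are given as CPM, counts per 1000000 of a library's total after scaling by edgeR's TMM factors, which were 1.72 and 1.55 in P18 parotid, 1.10 and 1.04 in submandibular gland and 0.640 to 0.718 in adult parotid. All 7 serous acinar markers had counts in every library, with summed levels of 3091 to 9706 CPM in P18 parotid, 36508 to 37973 in submandibular gland and 159505 to 188815 in adult parotid. Car6 alone stood at 35678 and 34179 CPM in submandibular gland, against 31.5 and 10.4 in P18 parotid. Amy1 alone stood at 143092, 165314 and 164381 CPM in adult parotid, against 2.84 and 23.6 in submandibular gland. The submandibular and adult sums thus rested mostly on single genes. In the test described below 2 of the 7 markers were higher and 3 lower in submandibular gland than in P18 parotid. Of all tested genes 10.2% were higher and 14.2% lower. Libraries of a parotid group differed in more than depth. In P18 parotid replicate 2 fat markers reached a sum of 9636 CPM and skeletal muscle markers of 5854 CPM, against 2716 and 1207 in replicate 1, and 525 tested genes were at least 4-fold apart between them. In adult replicate 1 Xist, the X-inactivation RNA of female cells, was at 272 CPM against 0.191 and 0.434 in replicates 2 and 3, and the Y-linked Ddx3y, Kdm5d, Uty and Eif2s3y had no count, so it differed from them in sex-linked transcripts. These are the 2 libraries left out together below. Adult replicates 2 and 3 had features of their own, as the muscle sum was 4648 CPM in replicate 3 against 517 and 1229, and the mucin Muc19 had 3421 counts in replicate 2 against 0 and 1. As these are bulk libraries, fewer cells of a type and less RNA per cell cannot be told apart.

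Bpifa2 was the most abundant gene in each of the 5 parotid libraries, by counts and by TPM (counts per gene length, scaled to a fixed total). In P18 parotid it had 1419659 counts in replicate 1 and 391898 in replicate 2, or 11.1% and 2.72% of all counts. In adult parotid it had 5103339, 5784815 and 8131754 counts, or 32.0%, 26.3% and 28.2%. In P18 submandibular gland it had 1370 and 3594 counts, or 0.00893% and 0.0273%. Exact (Clopper-Pearson) 95% binomial intervals of these shares reached at most 0.0229 percentage points to either side and cover counting error only.

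Each adult library lay above both P18 parotid libraries, and both of these above both submandibular libraries. Normalised levels were 64404 and 17550 CPM in P18 parotid, 81.0 and 263 CPM in submandibular gland, and 499492, 367807 and 392301 CPM in adult parotid. The group means were 40977 ± 33131 (SD, n = 2), 172 ± 129 (n = 2) and 419866 ± 70037 CPM (n = 3). The adult mean was 10.2 times the P18 parotid mean, and the lowest adult library 5.71 times the highest P18 library. The P18 parotid mean was 238 times the submandibular mean, with 66.7 times between the nearest libraries, and the adult mean 2440 times, with 1398.

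**Figure D1:**
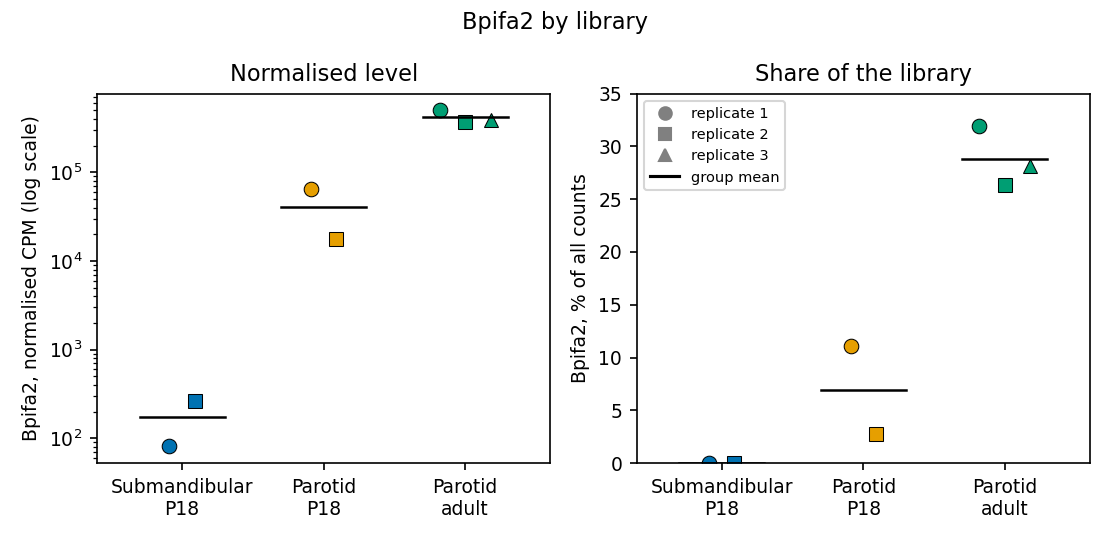
Bpifa2 in each library as TMM-normalised CPM on a log axis (left) and as percent of all counts (right); points are libraries and bars group means. The groups do not overlap on either scale, and the P18 parotid libraries are 3.67 times apart in CPM.

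The spread within a group was much larger at P18 than in the adult. The P18 parotid libraries were 3.67 times apart and the submandibular libraries 3.25 times, while the highest adult library was 1.36 times the lowest. The P18 parotid library with less Bpifa2 was the one with the higher fat and muscle sums, and its serous marker sum was 3091 against 9706 CPM. The part of tissue makeup in the Bpifa2 difference between these libraries was not tested.

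On the TPM scale Bpifa2 reached 216111 and 54714 in P18 parotid, 141 and 435 in submandibular gland, and 379856, 338628 and 358350 in adult parotid. The next gene by TPM was the RNase P RNA Rpph1 in P18 parotid, where Bpifa2 was 9.66 and 1.89 times as high. In adult parotid it was Smr3a, a submaxillary gland androgen-regulated protein, and Bpifa2 was 1.52 to 1.65 times as high. In submandibular gland Bpifa2 ranked 407 and 141 by TPM, far under Scgb1b27, a secretoglobin, which led there at 212478 and 213799 TPM.

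Bpifa2 also made up nearly all of the RNA of its family. It held between 99.88% and 99.998% of the summed Bpif TPM of a library, the lowest share being in submandibular replicate 1. All other members together had 48 and 18 counts in P18 parotid, 4 and 2 in submandibular gland and 230, 209 and 293 in adult parotid. Per 1000000 counts of Bpifa2 that was 33.8 and 45.9 counts of other members in P18 parotid, and 36.0 to 45.1 in the adult. The ranges of the parotid groups overlapped.

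The glands were compared at P18. In edgeR's quasi-likelihood test, with Benjamini-Hochberg adjustment over all genes and a threshold of 0.05, Bpifa2 had a log2 difference of -7.90 ± 2.52 (SE; submandibular minus parotid, adjusted p = 0.0585). It therefore did not pass, although both parotid libraries were above both submandibular ones. None of the 6 tested members passed in this comparison, where 24.4% of all tested genes did. At an unadjusted p under 0.05 there were 2 members, for which no share of all genes is given here. DESeq2 called 3 members, where it called 4529 of 15129 genes. The libraries of 4 members, Bpifa2, Bpifa6, Bpifb1 and Bpifb5, did not overlap and were lower in submandibular gland. Of all tested genes 64.9% did not overlap, made up of 33.2% that were lower and 31.7% that were higher in submandibular gland. Leaving out P18 parotid replicate 1 gave -6.63 (adjusted p = 0.00985) and leaving out replicate 2 gave -8.53 (adjusted p = 0.00835). In each the single remaining library was taken to have the spread of the others. Leaving out a submandibular library gave -7.25 (replicate 1, adjusted p = 0.244) and -8.97 (replicate 2, adjusted p = 0.215), and leaving out an adult library gave adjusted p = 0.05002 to 0.0981. Without P18 parotid replicate 2 and adult replicate 1 together, Bpifa2 was at -8.53. That setting was chosen after seeing the data and left 1 P18 parotid library.

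Between adult and P18 parotid the log2 difference of Bpifa2 was 3.36 ± 1.97 (adjusted p = 0.233, edgeR), which did not pass. The size of this difference depended on the scale. Scaled by total counts alone it was 2.07, and the log2(TPM + 1) scale gave 1.72. Both give every library the same total, of which Bpifa2 itself held 26.3% to 32.0% of adult counts, and they moved the median difference of all genes by -1.23 and -1.47. Without P18 parotid replicate 2 and adult replicate 1 it was 2.59 (adjusted p = 0.0583). DESeq2 called it (adjusted p = 3.84e-07).

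Against adult parotid, Bpifa2 was lower in P18 submandibular gland, with a log2 difference of -11.25 ± 2.84 (adjusted p = 0.0187, edgeR). Gland and age differ together in this comparison and cannot be told apart. The call was lost without submandibular replicate 1 (-10.65, adjusted p = 0.119) and without replicate 2 (-12.34, adjusted p = 0.0981). The 3 comparisons share their groups and are not independent. An exact permutation test could not reach 0.05 with these groups, since its smallest p is 0.333 for 2 against 2 libraries and 0.2 for 2 against 3.

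The counts of Bpifa2 in submandibular gland were set beside those of 9 other secreted products of the parotid. They were those of the fixed product list and of the genes most like Bpifa2 with at least 20 CPM in P18 parotid and higher levels there in both libraries, so their direction was fixed by the choice. In submandibular replicate 2 Bpifa2 stood at 0.642% of its P18 parotid mean and the other 9 at 0.393% to 1.32%. In replicate 1 Bpifa2 stood at 0.198% and the others between 0, for the chitinase Chia, and 1.68%, for the nuclease Dnase1. Bpifa2 was thus within the range of the other products in both libraries.

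Most of these products were also higher in submandibular replicate 2 than in replicate 1. The ratio was 3.25 for Bpifa2, 8.30 for the salivary amylase Amy1, 26.2 for Smr3a and 25.4 for Dcpp1, a demilune cell and parotid protein. Prb1 and Prpmp5, which encode proline-rich proteins, had ratios of 1.39 and 1.25, and Dnase1 of 0.787. The muscle sum was 47.1 CPM in replicate 2 against 2.37 in replicate 1, and the fat sum 28.9 against 24.9. Whether parotid tissue contributed to these counts was not tested.

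**Figure D2:**
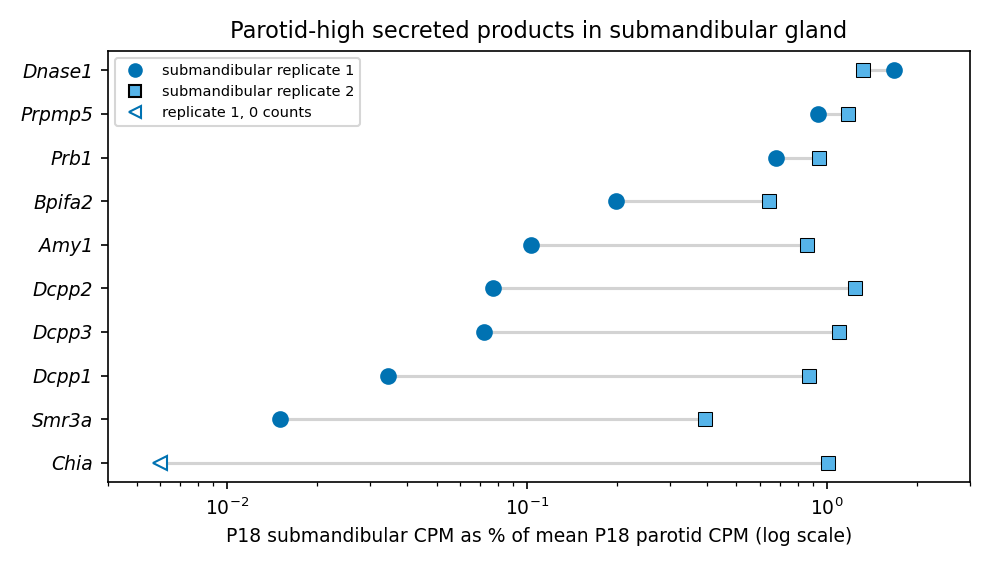
Level of 10 parotid-high secreted products in each P18 submandibular library, as percent of the mean P18 parotid CPM on a log axis; circles are replicate 1, squares replicate 2, and the open triangle at the left marks 0 counts. Bpifa2, at 0.198% and 0.642%, lies within the range of the other products in both libraries.

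Among the same products the age difference of Bpifa2 was not at an extreme. Its adult mean was 10.2 times the P18 parotid mean, and the other 9 ranged from 0.295 for Prb1 to 187 for Chia, with a median of 14.6. Amy1 was 57.4 times and Smr3a 76.7 times as high in the adult. Dcpp1, at 6.80 times, and Dcpp3, at 3.46 times, lay under Bpifa2. Bpifa2 had neither the largest nor the smallest ratio of the 10.

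Bpifa6, the neighbour and closest relative of Bpifa2, had the next highest count in the family, 335 in all. It had 9 and 3 counts in P18 parotid, none in submandibular gland, and 21, 126 and 176 in adult parotid. Normalised levels were 0.408 and 0.134 CPM, 0 and 0, and 2.06, 8.01 and 8.49 CPM. All adult libraries were above both P18 libraries. Bpifa6 was higher in adult than in P18 parotid by 4.49 ± 0.86 on the log2 scale (adjusted p = 0.0150, edgeR), a call that was lost without adult replicate 2 (adjusted p = 0.0540). Bpifa6 reached the filter's level in 3 adult libraries and 1 P18 parotid library, so it entered the test mainly through the adult. Its adult level was at least 70.5-fold higher than in submandibular gland, with the floor set at 3 counts over the group.

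Bpifb4, Bpifb3 and Bpifb2, long members at the other end of the row, had most of their counts in the adult parotid. Bpifb4 had 1 and 0 counts in P18 parotid, none in submandibular gland, and 15, 21 and 50 in the adult. It was higher in adult than in P18 parotid by 5.89 ± 0.86 on the log2 scale (adjusted p = 0.00749), and the ratio of levels was 81.8 with a counting interval of 14.3 to 3267, since it rests on 1 count. Bpifb4 reached the filter's level in adult libraries only, so it was tested because it was high there. Its test is thus a description. The adult level was at least 18.8-fold higher than in submandibular gland.

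Bpifb2, a secreted member found in human saliva, had 5 and 0 counts in P18 parotid, none in submandibular gland, and 5, 20 and 27 in the adult. Like Bpifb4, it reached the filter's level in adult libraries only, so its test is a description too. The adult level was at least 11.4-fold higher than in submandibular gland, and its log2 difference from P18 parotid was 3.14 ± 1.00 (adjusted p = 0.0623). Without P18 parotid replicate 1 that difference was 7.15 (adjusted p = 0.0178). Bpifb3, which regulates autophagy in human cells, had 3 and 0 counts in P18 parotid, none in submandibular gland, and 3, 22 and 16 in the adult. It was not tested, since it reached the filter's level in 1 library only, and its adult to P18 ratio was 13.0 with a counting interval of 4.15 to 65.6.

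In Bpifa6, Bpifb2 and Bpifb3 the lowest adult library was replicate 1, with 0.249 and 0.380 times the mean of replicates 2 and 3 for Bpifa6 and Bpifb2. Bpifb1 and Bpifb5, at the far end of the row, showed the opposite order. Bpifb1 had 146, 14 and 7 counts in the adult libraries, 13 and 7 in P18 parotid, and none in submandibular gland. Its level in adult replicate 1, 14.3 CPM, was 23.3 times the mean of replicates 2 and 3. Bpifb5 had 39, 2 and 9 counts in the adult libraries, 15 and 4 in P18 parotid, and none in submandibular gland, and replicate 1 was 13.6 times the mean of the others. Bpifa2 itself was 1.31 times as high in replicate 1.

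Adult replicate 1 was the library with female-type sex-linked transcripts, and 277 of the tested genes were at least 4-fold apart between it and the mean of the other adult libraries. The part of sex in the difference of Bpifb1 and Bpifb5 was not tested, as a single library carried it. Markers of airway and nasal epithelium, where Bpifb1 is known from, had sums between 0.241 and 1.01 CPM in all 7 libraries. None of these 9 markers passed the filter, and in adult replicate 1 a total of 7 were at 0, Scgb1a1, Muc5b and Muc5ac among them. The 2 with a count there were Reg3g, with 5 counts against 0 and 0 in replicates 2 and 3, and Scgb3a1, with 1 against 4 and 1. Markers of oral and squamous epithelium had sums of 26.5 CPM in adult replicate 1 and of 26.9 and 35.3 CPM in replicates 2 and 3, most of it the basal keratin Krt5. Within that list Krt4, a keratin of oral lining, was higher in replicate 1, with 35 counts against 2 and 0. Other members of the list went otherwise, as Lor had 6, 4 and 149 counts and Ivl 2, 0 and 11, both highest in replicate 3. Krt13 and Sprr3 had no count. Outside the list, Slpi, a protease inhibitor of mucosal secretions (179 CPM against 21.3 and 6.03), and lactoferrin, Ltf (29.6 CPM against 2.67 and 0.241), were higher in replicate 1. The part of Krt4, Slpi and Ltf in the levels of Bpifb1 and Bpifb5 was not tested, and they were chosen after their values were seen.

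**Figure D3:**
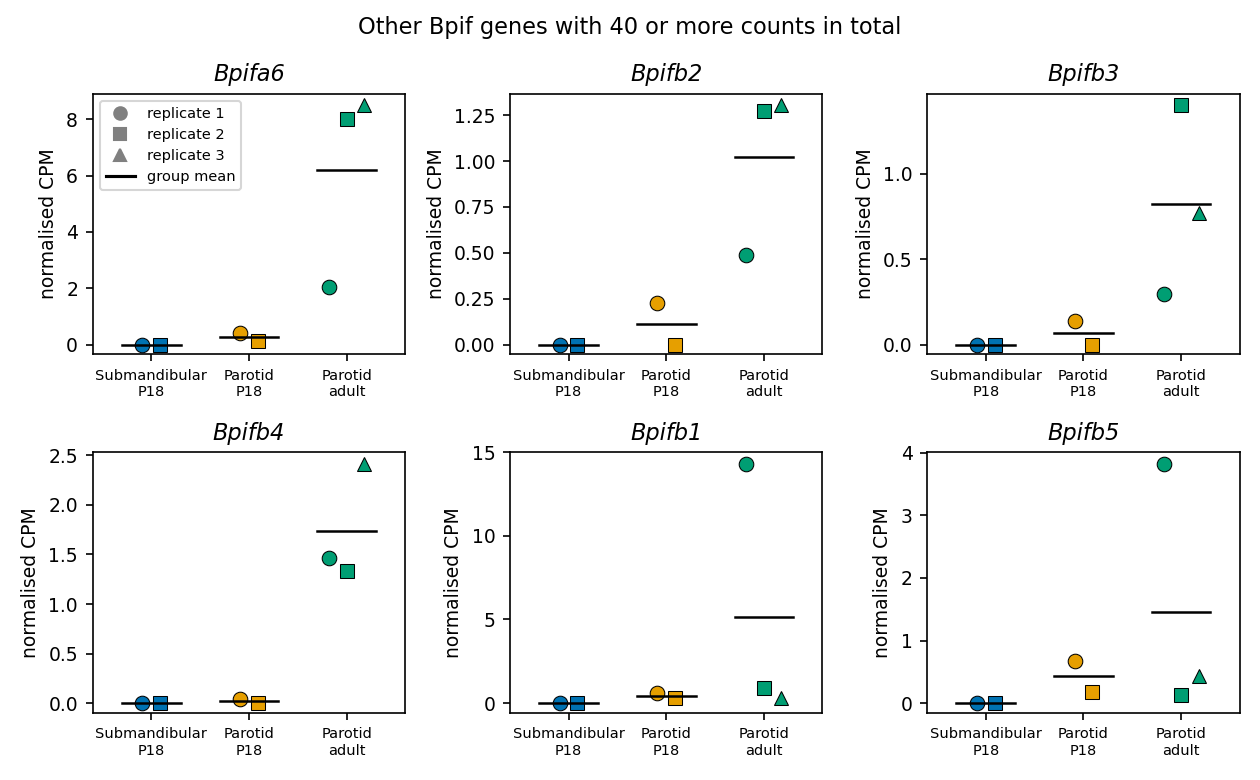
TMM-normalised CPM of the 6 other Bpif genes with the most counts, each on its own linear axis; points are libraries, with the shape giving the replicate, and bars are group means. Bpifa6, Bpifb2 and Bpifb3 have their lowest adult value in replicate 1, while Bpifb1 and Bpifb5 have their highest there.

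With all libraries, Bpifb1 and Bpifb5 differed between adult and P18 parotid by 3.45 ± 1.67 (adjusted p = 0.168) and 1.64 ± 1.37 (adjusted p = 0.399) on the log2 scale, and their groups overlapped. Without P18 parotid replicate 2 and adult replicate 1 the differences were 0.04 (adjusted p = 0.973) and -1.15 (adjusted p = 0.294), so the direction for Bpifb5 turned. Against submandibular gland, where neither had a count, the P18 parotid level was at least 4.59-fold higher for Bpifb1 and at least 4.36-fold higher for Bpifb5, both without passing the test (adjusted p = 0.324 and 0.235). The corresponding bound for Bpifa6 was at least 2.76-fold (adjusted p = 0.123, edgeR). These bounds take the parotid counts as exact, and cover neither their counting error nor the spread between libraries.

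In total 2 of 6 tested members were higher in adult than in P18 parotid, Bpifa6 and Bpifb4, and none was lower. Of all tested genes 25.9% passed in this comparison, 10.7% higher and 15.1% lower. The libraries of 4 members did not overlap, with all adult values higher. Of all tested genes 54% did not overlap, made up of 26.6% higher and 27.4% lower in the adult. DESeq2 called 4 members, Bpifa2 and Bpifb1 besides Bpifa6 and Bpifb4, where it called 4925 of 15129 genes. The count was 4 of 7 without P18 parotid replicate 1, 1 of 5 without adult replicate 2, and 4 of 7 without P18 parotid replicate 2 and adult replicate 1.

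Against adult parotid, 4 of 6 members were lower in P18 submandibular gland, where 19.8% of all tested genes were lower and 19.4% higher. They were Bpifa2, Bpifa6 (adjusted p = 0.00463), Bpifb4 (adjusted p = 0.00401) and Bpifb2 (adjusted p = 0.0203). All 6 had no overlap between groups, as had 72% of all tested genes (35.9% lower and 36.1% higher in submandibular gland). The count fell to 2 without either submandibular library, Bpifa2 and Bpifb2 losing their calls, and DESeq2 called all 6. Since the 5 members other than Bpifa2 had no count in submandibular gland, their fitted differences depend on a prior count and give no size.

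Which members were tested bears on these counts. The filter asked for about 0.652 counts per 1000000 library counts, before TMM scaling, in 2 libraries. Bpifb2 and Bpifb4 reached it in adult libraries only, Bpifa6 in 3 adult and 1 P18 parotid library, and Bpifb1 and Bpifb5 in 1 adult and 1 P18 parotid library. No member other than Bpifa2 reached it in submandibular gland. These 5 therefore entered the test through the groups where they were high, and their counts are a description and no support for a trend of the family.

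**Figure D4:**
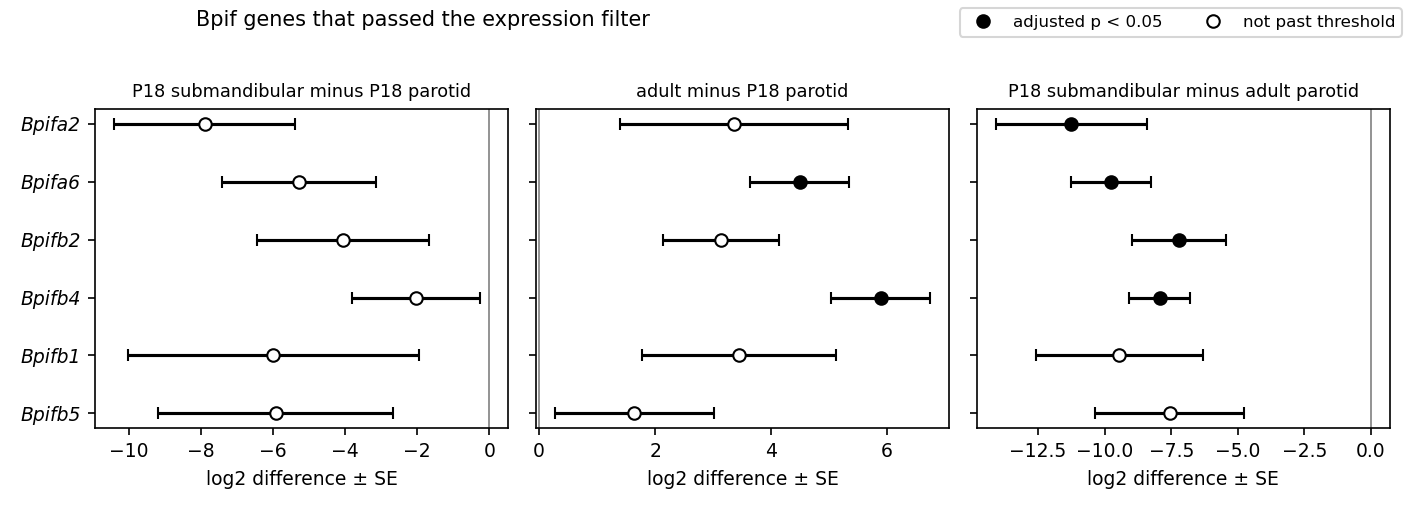
Fitted log2 difference ± SE (edgeR) of the 6 tested Bpif genes in each comparison; filled points have an adjusted p under 0.05 and open points do not. All points lie on the parotid side and, between the parotid groups, on the adult side, where Bpifb5 turned to the P18 side on the TPM scale; sizes against submandibular gland depend on a prior count for all members but Bpifa2.

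The other 7 members were at or near 0. Bpifa1, Bpifa3, Bpifa5 and Bpifb9b had no count in any library, where 3 counts over all 7 libraries would amount to 0.0247 CPM. Bpifb9a, known in rat as the vomeronasal protein vomeromodulin, had 2 counts in P18 parotid and 1 in submandibular gland. Bpifb6, which in human cells acts on secretory trafficking, had 3 counts in each of adult replicates 2 and 3 and none elsewhere. Bpifc had 16 counts spread over 6 libraries, between 0 and 5 in each, with group means of 0.0896 CPM in P18 parotid, 0.162 in submandibular gland and 0.134 in the adult. It was, besides Bpifa2, the only member with a count in both submandibular libraries.

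The genes whose profile over the 7 libraries was closest to that of Bpifa2 were Dcpp2, Dcpp1, Dcpp3, Cd79a, Ms4a1 and Amy1, among 7156 genes with at least 20 CPM in their highest group. Likeness was the root mean square difference of log2 CPM profiles, each centred on its own mean, and was 0.64, 0.94, 1.07, 1.23, 1.29 and 1.34. A prior count of 2 entered the log2 values, so the distances depend on it where counts were few. In the submandibular libraries Ms4a1 had 0 and 0 counts, Cd79a 0 and 1, and Dcpp2 1 and 13. The Dcpp genes are close copies of each other, so that their counts are uncertain between them. Dcpp2, the nearest, had 91.0 and 61.8 CPM in the P18 parotid libraries, 0.0592 and 0.952 in the submandibular ones, and 1214, 1603 and 539 in the adult.

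Cd79a, a subunit of the B cell receptor, and Ms4a1, the B cell antigen CD20, are not secretory genes. Cd79a had 20.3 and 2.73 CPM in the P18 parotid libraries, 0 and 0.0732 in the submandibular ones, and 110, 59.3 and 42.0 in the adult. Sums of the 7 B and T cell markers were 138 and 25.6 CPM in the P18 parotid libraries, 2.01 and 1.76 in the submandibular ones, and 483, 263 and 206 in the adult. Lymphocyte transcripts thus stood in the same order of groups and of P18 parotid libraries as Bpifa2, and their part in the comparisons was not tested.

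**Figure D5:**
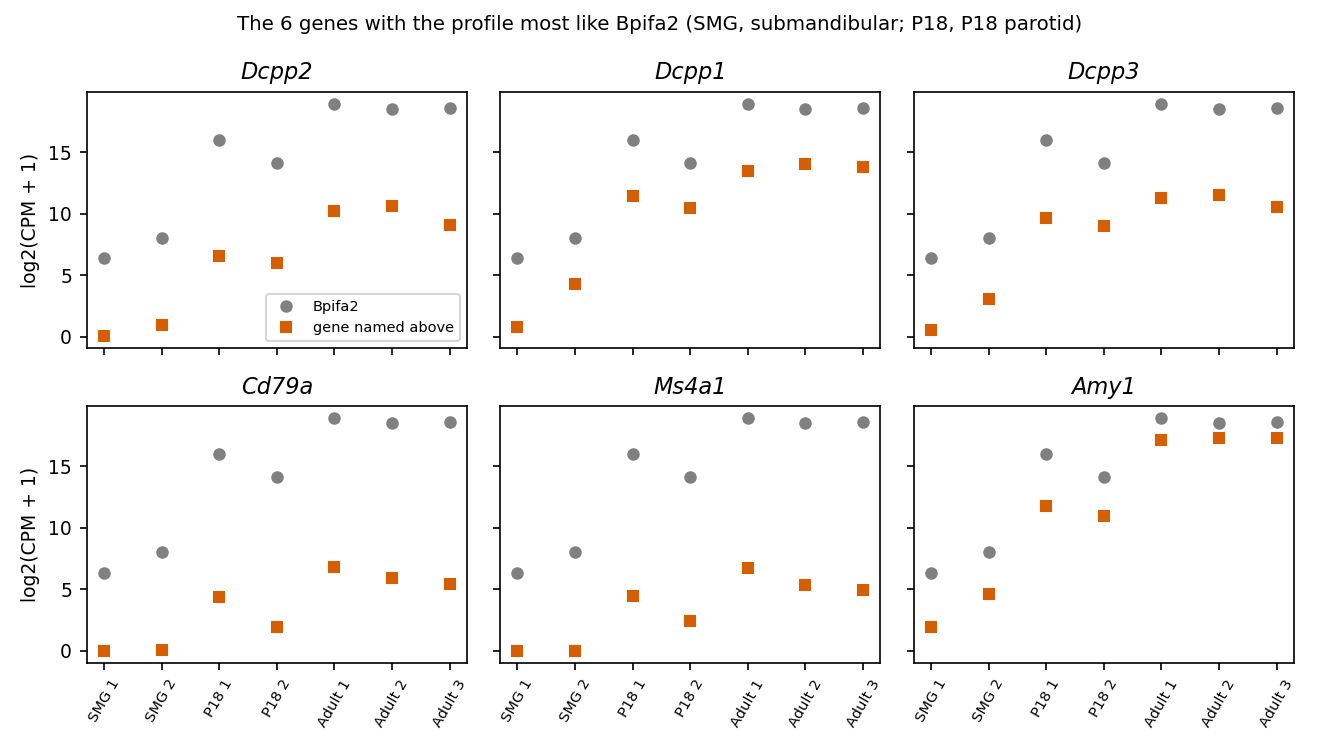
log2(CPM + 1) of the 6 genes closest in profile to Bpifa2 (squares) beside Bpifa2 (circles) in each of the 7 libraries. Each gene is lowest in submandibular gland (SMG) and highest in adult parotid, at levels under that of Bpifa2.

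Relatives of the family and genes of lipopolysaccharide sensing were measured beside it. Bpi had 3 counts in all and was not tested. Lbp, which carries lipopolysaccharide to Cd14, was at 17.5 ± 2.49 CPM in P18 parotid, 4.64 ± 0.137 in submandibular gland and 36.9 ± 11.0 in the adult. Of 5 tested genes, Lbp (log2 -1.91 ± 0.30, adjusted p = 0.00750) and the phospholipid transfer protein gene Pltp (-1.45 ± 0.39, adjusted p = 0.0344) were lower in submandibular gland than in P18 parotid. None of the 5 was higher. The median log2 difference of the 5 was -0.02, against -0.07 over all tested genes, of which 10.2% were higher and 14.2% lower in submandibular gland.

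By age the result for these 5 genes depended on the scale. With TMM the median was 1.08 against -0.01 over all tested genes, of which 10.7% were higher and 15.1% lower in the adult. Of the 5 genes 3 were higher in the adult and none lower. They were Cd14, the lipopolysaccharide co-receptor (1.88 ± 0.35, adjusted p = 0.0109), Ly96, the co-receptor of Tlr4 (1.28 ± 0.28, adjusted p = 0.0184), and Lbp (1.08 ± 0.26, adjusted p = 0.0255). With plain library sizes none was higher and 1 was lower, and on log2(TPM + 1) none was higher and 4 were lower. Of all 15129 tested genes 10953 were called with plain library sizes, 1.52% of them higher. On log2(TPM + 1) 13059 were called, 0.689% of them higher. On these scales Cd14 was at 0.66 and 0.01, Ly96 at 0.05 and -0.58, and Lbp at -0.19 and -0.81. The median of all tested genes was -1.24 and -1.48 there, so these 3 genes stayed above the median gene. Against 0, no direction by age can be given for the list. The sum of the macrophage markers was 97.0 and 139 CPM in P18 parotid and 233 to 305 in the adult, and its part in these differences was not tested. Against adult parotid 4 of the 5 genes were lower in submandibular gland and 1, the receptor Tlr4, was higher (1.01 ± 0.20, adjusted p = 0.00842, edgeR). Of all tested genes 19.8% were lower and 19.4% higher in that comparison.

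Other secreted products divided by gland, as 6 of 19 tested were higher and 9 lower in submandibular gland than in P18 parotid. Prol1, a proline-rich protein, was at 4913 ± 3034 against 0.837 ± 0.677 CPM, while Dcpp2 was at 0.505 ± 0.631 against 76.4 ± 20.7 CPM. Of all tested genes 10.2% were higher and 14.2% lower. The median log2 difference was -5.38, against -0.07 over all tested genes, and that of Bpifa2 was -7.90. Between adult and P18 parotid 9 were higher and 1 lower, with a median of 3.87 beside the 3.36 of Bpifa2, where 10.7% of all tested genes were higher and 15.1% lower. With plain library sizes that count was 10 higher and 4 lower, where 10953 of 15129 genes were called, 1.52% of them higher. The lower gene was Smr2, and the higher ones included Csn3, a casein (50.3 ± 4.60 against 0.294 ± 0.290 CPM).

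Of 14 tested antimicrobial and host defence proteins, 4 were higher and 4 lower in submandibular gland than in P18 parotid. With age 8 were higher and none lower in adult than in P18 parotid. Pigr, which carries IgA into saliva, was at 380 ± 51.6 CPM in the adult against 16.4 ± 9.23 at P18 (4.53 ± 0.49, adjusted p = 0.00228). The median of the 14 was -0.68 by gland and 2.202 by age, and the counts by age were 5 higher and 1 lower with plain library sizes, and 3 higher and 2 lower on log2(TPM + 1). The shares of all tested genes are those given for the secreted products. On log2(TPM + 1) 13059 of 15129 genes were called by age, 0.689% of them higher. Among 11 tested transcription factors of secretory acini, submandibular gland had 4 at higher and 2 at lower levels than P18 parotid, and adult parotid had 3 at higher levels and none lower. Their medians were 1.21 by gland and 1.203 by age. With plain library sizes the counts were 2 higher and 2 lower by gland, and none higher and 1 lower by age. Of all 15129 tested genes that scale called 5955 by gland, 8.73% of them higher, and 10953 by age, 1.52% of them higher. Xbp1, a factor for the secretory pathway, was at 405 ± 8.25 CPM in the adult against 140 ± 40.1 at P18 (1.53 ± 0.26, adjusted p = 0.00902, edgeR). Its difference was 0.28 with plain library sizes and turned to -0.34 on log2(TPM + 1), where the median of all tested genes was -1.24 and -1.48.

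Cdk5rap1, whose annotated span overlaps Bpifb5, Bpifb9a and Bpifb9b, had log2 differences of -0.55 in the gland comparison at P18 (adjusted p = 0.198, edgeR) and -0.69 between adult and P18 parotid (adjusted p = 0.0816). The strand used in counting is not given in the sources used here, so reads of Cdk5rap1 and of these 3 members cannot be told apart where they overlap.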

How the data were processed

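Polyadenylated RNA of 7 mouse salivary gland libraries was prepared from 1 µg of total RNA with Illumina TruSeq, per the labels' protocols. The authors deposited raw counts for each gene symbol, and in a second table TPM values, in which counts are set per gene length and summed to the same total in every library. Per the submitters' processing notes, the build was mm9 and the tools DESeq2 1.20.0, featureCounts 1.5.1, Bowtie2 2.2.6 and TopHat2 2.1.1, with no role or order. Settings for strand and multi-mapping reads: not given in the sources used here. The count table held a further 2 columns with no matching sample label, which were left out. Counts over gene length were proportional to TPM in every library for 9448 genes with at least 50 counts throughout.

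Groups came from the sample labels. Depth was 12844534 to 28856127 counts. Genes were filtered with edgeR's filterByExpr (minimum count 10, total 15), scaled by TMM, and tested with all 3 groups in one model by edgeR 4.0.16 (glmQLFit and glmQLFTest, R 4.3.3, 4 residual degrees of freedom, Benjamini-Hochberg over 15129 genes, threshold 0.05). Alternatives used DESeq2 1.42.0 and limma 3.58.1. The test was checked on simulated counts, with 200 genes changed by known folds and a fixed spread for all genes. That spread was not taken from these libraries, so the check does not tell how the test behaves on them. No replicate pair agreed within sampling noise (chi-square per degree of freedom 13.3 to 197). Members and all 16 gene and marker lists were chosen with earlier results of these data known. Named genes were every Bpif gene and the 6 genes nearest to Bpifa2 in profile. From each gene list they were the 2 of smallest adjusted p on each side at most, apart from Bpi and, by age, Lbp. Genes of the product comparison, Cdk5rap1 and sex-linked genes were chosen after values were seen. So were Muc19, Slpi, Ltf and the single genes named from marker lists. Folds against groups without a count are bounds at 3 counts over the group, with the counts of the other group taken as exact. Counting intervals are 95% exact. Promoters are from RefSeq (GRCm38.p6; 14 members matched, 16 windows), coding sequences from GENCODE on the same assembly, aligned with Biopython 1.88. mm9 differs from that build, so no coordinates are given for counts.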

Additional observations from a re-analysis of the deposited data

How the results depend on the processing

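In the gland comparison at P18, Bpifa2 passed the threshold with plain library sizes (-8.57), without a filter on low counts (-7.89), with DESeq2 (-7.89), with only the 2 groups compared in the fit (-7.87), and with limma on log2(TPM + 1) (-8.77) and log2(TPM + 0.1) (-8.78), as well as without P18 parotid replicate 2 and adult replicate 1, the 2 libraries left out together (-8.53, a setting chosen after seeing the data). Leaving out single libraries gave -8.97 to -6.63. Over 18 alternatives it passed in 9, in 1 for adult minus P18 parotid (1.72 to 4.63; DESeq2, 3.35) and in 14 for submandibular gland minus adult parotid (-12.34 to -10.49; -12.34 to -10.65 with single libraries left out), with no change of direction. The last call was also lost on log2(TPM + 1) without a filter (-10.49, adjusted p = 0.108).

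The number of Bpif genes called at P18 was 0 in the fit reported, 1 with plain library sizes, without the filter, with only the groups compared and on log2(TPM + 1), 3 with DESeq2 and on log2(TPM + 0.1), and 5 without those 2 libraries; leaving out single libraries gave 0 to 1. Between adult and P18 parotid 2 became 4 with DESeq2 and 4 without those 2 libraries, and 1 to 4 over single libraries left out. Against adult parotid 4 became 2 on log2(TPM + 1) without a filter and 7 without those 2 libraries, and 2 to 5 over single libraries left out. Bpifb5 turned direction between adult and P18 parotid on log2(TPM + 1), with or without a filter (-0.21), on log2(TPM + 0.1) (-0.75) and without those 2 libraries (-1.15).

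Replicate numbers were not shown to pair samples, as deviations of same-numbered libraries correlated at 0.239 between the P18 groups and at -0.0174 to 0.0844 otherwise. With the replicate number as a block, 1 Bpif gene and 1496 genes in all were called between adult and P18 parotid, and Bpifa2 against adult parotid was -11.22 (adjusted p = 0.181).

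Of all genes, 3686 were called at P18 in the fit reported, 5955 with plain library sizes, 1349 with only the groups compared, 9699 and 9130 on log2(TPM + 1) and log2(TPM + 0.1), 9941 without a filter on the former, and 6245 without those 2 libraries, with 148 to 5397 over single libraries. Between adult and P18 parotid 3915 became 10953, 2182, 13059, 13069, 14170 and 6518 in that order, with 1306 to 6073. Against adult parotid 5927 became 9128, 9937 and 8977 on the TPM scales and 9345 without those 2 libraries, with 2016 to 7824. Plain library sizes shifted the median log2 difference of all genes by -0.61, -1.23 and 0.63 in the 3 comparisons, and the share of higher calls from 41.7% to 8.73% at P18 and from 41.5% to 1.52% by age.

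Bpifa2 held 13.5% of TPM in P18 parotid, beside 6.89% of counts, and 35.9% in the adult, beside 28.8% of counts. As a ratio to the counts of genes outside the 50 most abundant, a total without Bpifa2, its counts came to 88.3% in the adult and 0.0351% in submandibular gland. By age Lbp turned to -0.19 when scaled by total counts and to -0.81 on log2(TPM + 1), where Ly96 turned to -0.58 and Xbp1 to -0.34, settings chosen for these genes after seeing the data. The causes of these changes were not tested. Groups of 2 and 3 libraries limit every comparison, and depth limits the members under about 100 counts.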
